A study of Mus musculus with 18 samples.

Results

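Brain endothelial cells that had lost Pdcd10 and were then exposed to hypoxia were set directly against cells with neither change, so that the comparison gave the total change from baseline. The members were taken by their labels: 5 libraries named hypoxia KO and 4 named normoxia flox, 9 of the 18 libraries in the series. Hypoxia KO mice carried the inducible Cre Slco1c1-iCreERT2 together with Pdcd10fl/fl and the reporter Aldh1l1-EGFP/Rpl10a, and lived in 12% oxygen for 7 days. Normoxia flox mice carried Pdcd10fl/fl and the same reporter, with no Cre driver in the label, and lived in 21% oxygen. Floxed Pdcd10 and the astrocyte reporter were thus shared by all groups. A dose of 50 µg 4-hydroxytamoxifen had been given on postnatal day 1, and RNA of isolated brain endothelial cells was taken on postnatal day 57. The Cre is driven by Slco1c1, a thyroid hormone transporter gene of brain endothelium. The remaining 9 libraries carried 1 change each, 5 of them normoxia KO and 4 hypoxia flox, and served to split the total change into steps. The design text also counts Cre animals without injection among the controls and does not say which libraries they gave. No label says that the libraries of a group came from separate animals, so p-values measure only the spread between these libraries.

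Pdcd10 encodes CCM3, an adaptor protein that joins the cavernous malformation proteins KRIT1 and CCM2 and also binds a family of STK kinases. Loss of any of the CCM proteins in endothelium releases the kinase MEKK3 and raises the transcription factors KLF2 and KLF4, and in the brain it gives cavernous malformations, clusters of enlarged, leaky, thin-walled vessels that attract immune cells and disturb clotting. Hypoxia acts through another route: prolyl hydroxylases that need oxygen mark HIF alpha subunits for destruction, and when oxygen is low the subunits persist, pair with ARNT and bind short DNA cores in the promoters of genes for glycolysis and vessel growth. In adult brain, weeks of low oxygen are known to make capillaries sprout and endothelial cells divide.

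Total counts were 17931197 to 23340893 in hypoxia KO, 20621194 to 31193333 in normoxia KO, 18700135 to 23191007 in hypoxia flox and 19701159 to 24239786 in normoxia flox. All 12 endothelial markers were counted in both groups, with summed levels of 15666 to 17710 CPM (counts scaled to library size with TMM factors) in hypoxia KO and 13717 to 21323 CPM in normoxia flox. Some libraries stood apart. Normoxia flox 4 held 2603 CPM of 12 neuron markers and 2896 CPM of astrocyte markers, against 90.7 to 124 CPM and 298 to 366 CPM in the other normoxia flox libraries, and it had the lowest endothelial sum. Normoxia KO 4, which enters the steps and the non-additive term, held 1469 CPM of neuron and 1667 CPM of astrocyte markers. The other normoxia KO libraries had 65.0 to 87.4 CPM and 269 to 379 CPM. Normoxia flox 4 and normoxia KO 4 are called neuron-marker libraries below. Hypoxia KO 4 held 103 CPM of neutrophil markers, against 2.48 to 7.01 CPM in the other hypoxia KO libraries. Immediate early genes, which respond within minutes to handling, summed to 30341 to 36565 CPM in 4 hypoxia KO libraries and 4333 CPM in hypoxia KO 1, against 2644 to 10752 CPM in 3 normoxia flox libraries and 32297 CPM in normoxia flox 1. Xist without more than traces of Y-linked RNA was found in 4 of 5 hypoxia KO libraries and 1 of 4 normoxia flox libraries, Y-linked RNA without Xist in hypoxia KO 4 and normoxia flox 1, and both in normoxia flox 3 and 4 and in normoxia KO 4, called mixed-sex libraries below. Fits without the mixed-sex libraries kept only normoxia flox 1 and normoxia flox 2 as the baseline. A change in such a fit cannot be assigned to sex. The sex signal, mean log2 CPM of Y-linked genes minus that of Xist, was 4.669 to 8.262 in the 4 hypoxia flox libraries. It was -11.48 to -13.05 in 4 of 5 hypoxia KO libraries, so sex was nearly aligned with genotype within hypoxia. In bulk RNA of this kind, fewer cells of a type and less RNA per cell cannot be told apart.

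**Figure D1:**
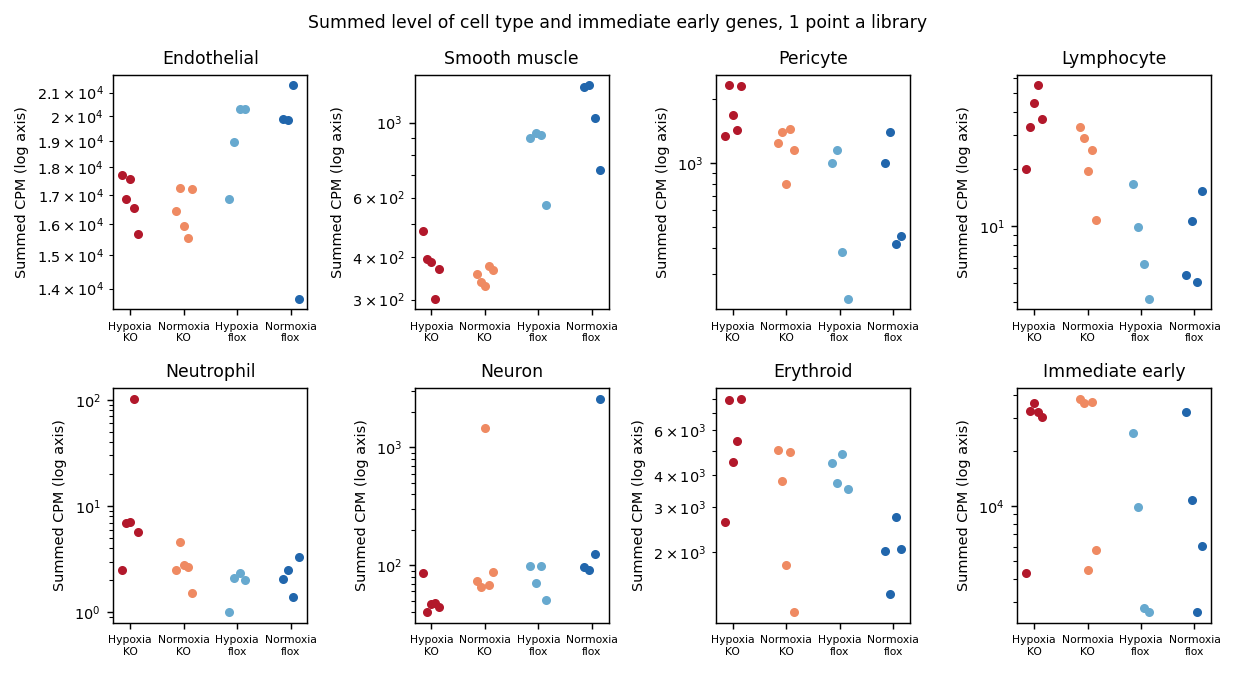
Summed CPM of marker genes of endothelium and of other cell types and of the immediate early genes, 1 point a library, on log axes, for hypoxia KO (n = 5), normoxia KO (n = 5), hypoxia flox (n = 4) and normoxia flox (n = 4). Normoxia flox 4 reaches 2603 CPM of neuron markers, and hypoxia KO 4 reaches 103 CPM of neutrophil markers.

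The targeted gene was read first. Pdcd10 had 22.1, 21.6, 25.3, 18.2 and 19.3 CPM in hypoxia KO, against 41.2, 45.0, 40.3 and 30.6 CPM in normoxia flox. The 5 hypoxia KO libraries lay below all 4 normoxia flox libraries, and a residual level remained in each of them. The gene fell by 0.88 ± 0.14 on the log2 scale (SE; adjusted p = 0.000198, edgeR quasi-likelihood test with Benjamini-Hochberg adjustment, as for every adjusted p below). Gene counts do not show whether the remaining reads span the floxed part. Of 16 genes of the CCM complex and its kinase partners, 3 rose and Pdcd10 alone fell, beside 14.2% higher and 13.9% lower among all 17531 genes tested. Heg1, the membrane receptor that anchors the complex, averaged 1913 ± 212 CPM in hypoxia KO (SD, n = 5) and 1201 ± 141 CPM in normoxia flox (SD, n = 4), a log2 fold change of 0.67 ± 0.12 (adjusted p = 0.00049). Ccm2, whose protein links KRIT1 to CCM3, was 36.9 ± 2.56 CPM in hypoxia KO against 31.2 ± 1.07 CPM in normoxia flox, a log2 fold change of 0.24 ± 0.06 (adjusted p = 0.0111) that no longer passed when low counts were left in (adjusted p = 0.0676).

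KLF2, the flow-responsive factor that is the best known output of CCM loss, was called with all libraries but not without single ones. Klf2 had 856, 1784, 1873, 1810 and 1712 CPM in hypoxia KO, against 1254, 674, 445 and 566 CPM in normoxia flox. Hypoxia KO 1 and normoxia flox 1, which also differed from the rest of their groups in immediate early RNA, overlapped with the other group. The log2 fold change was 1.13 ± 0.35 (adjusted p = 0.0242), and it did not pass without hypoxia KO 4 (adjusted p = 0.0501), without normoxia flox 2, 3 or 4 (adjusted p = 0.0595, 0.0759 and 0.0704), without the 3 mixed-sex libraries (0.71, adjusted p = 0.192), or with low counts left in (adjusted p = 0.0644). With hypoxia KO 1 left out it passed at 1.29 (adjusted p = 0.00939), and with normoxia flox 1 left out at 1.51 (adjusted p = 0.00534). Klf4 reached 872, 2932, 3387, 3114 and 2888 CPM in hypoxia KO, against 2647, 1483, 571 and 741 CPM in normoxia flox, and did not pass (log2 fold change 0.96 ± 0.61, adjusted p = 0.257). With immediate early RNA as a covariate, Klf4 stood at 0.16 (adjusted p = 0.478), and without the mixed-sex libraries at 0.33 (adjusted p = 0.762). Without normoxia flox 1 it stood at 1.49 (adjusted p = 0.105). Adamts9, a protease of the versican-cleaving family, had 93.6 to 147 CPM in hypoxia KO and 33.6 to 42.5 CPM in normoxia flox, with no overlap, and rose by 1.66 ± 0.20 on the log2 scale (adjusted p = 1.58e-05). Of the 14 genes of the KLF, ADAMTS and versican list, 4 rose and 3 fell, beside 14.2% and 13.9% of all genes. Without normoxia flox 4, the count was 2 and 2.

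Across the transcriptome, 4925 of 17531 genes passed the threshold of 0.05 (28.1%), 2481 of them higher in hypoxia KO (14.2%) and 2444 lower (13.9%). A change of at least 2-fold was found for 1134 higher genes (6.47%) and 1005 lower genes (5.73%). Genes called at least 4-fold lower numbered 198 without normoxia flox 4, against 632, 619 and 592 without normoxia flox 1, 2 and 3. Those called at least 4-fold higher numbered 669 without normoxia flox 4, against 568, 522 and 488. All 5 hypoxia KO libraries lay above all 4 normoxia flox libraries for 1966 genes (11.2%) and below them for 1655 genes (9.44%). The median log2 fold change over all genes was -0.06. Each comparison reported here uses normoxia flox libraries, hypoxia KO libraries or both. The combined change and the non-additive term use both. The steps are thus given side by side and are not independent. Pdcd10 loss in normoxia (normoxia KO minus normoxia flox) had 2905 passing genes (16.6%), 1673 higher (9.54%) and 1232 lower (7.03%). Hypoxia with intact Pdcd10 (hypoxia flox minus normoxia flox) had 492 (2.81%), 411 higher (2.34%) and 81 lower (0.462%). Pdcd10 loss within hypoxia (hypoxia KO minus hypoxia flox) had 3916 (22.3%), 1994 higher (11.4%) and 1922 lower (11%). With the sex signal as a covariate, 3135 genes passed in this step. Hypoxia after Pdcd10 loss (hypoxia KO minus normoxia KO) had 260 (1.48%), 125 higher (0.713%) and 135 lower (0.77%), and this last count moved to 53 without hypoxia KO 2, 102 without hypoxia KO 5, 403 without normoxia flox 4 and 523 without hypoxia KO 1.

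**Figure D2:**
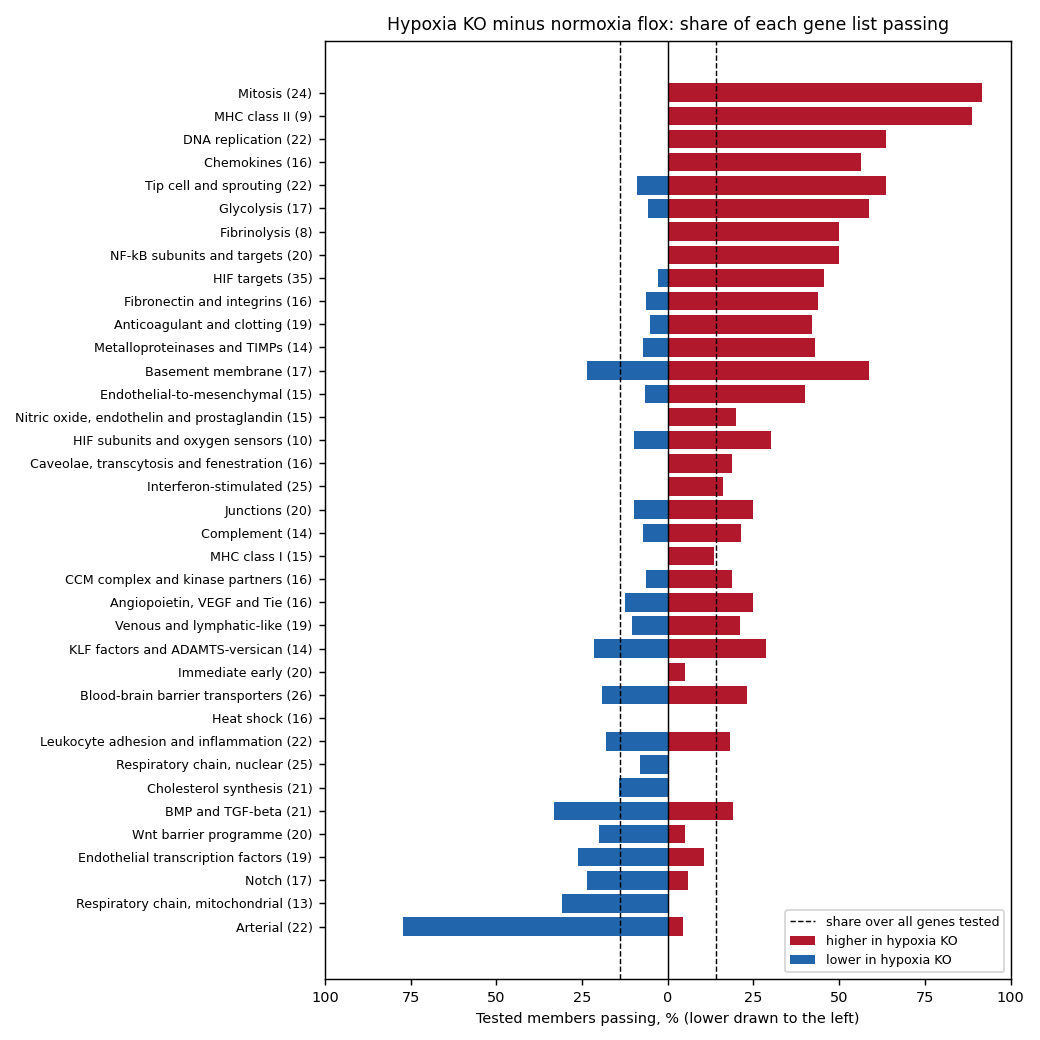
Share of the tested members of each gene list that passed in hypoxia KO minus normoxia flox, higher to the right and lower to the left, in percent; the number of tested members is in brackets and dashed lines mark the share over all 17531 genes, 14.2% higher and 13.9% lower. Mitosis (22 of 24) and MHC class II (8 of 9) reach furthest on the higher side and the arterial list (17 of 22) on the lower side.

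The 10 highest fold changes were taken among passing genes with no overlap between the groups and an average level of at least 1 on the log2 CPM scale. They belonged to Tnfrsf9, Tnfsf15, Aurkb, S100a8, Ackr2, Apln, Fndc1, Gpr35, Tnfsf8 and Cd74. Tnfsf15, a TNF family cytokine made by endothelium, had 4.52, 9.91, 3.60, 8.63 and 6.33 CPM in hypoxia KO, against 0.209, 0, 0 and 0.285 CPM in normoxia flox. The groups were far apart in every library, with a log2 fold change of 5.66 ± 0.65 (adjusted p = 5.82e-06), 6.56 without normoxia flox 4. Ackr2, a decoy receptor that takes up inflammatory chemokines, had 33.3, 59.3, 38.9, 45.5 and 49.6 CPM in hypoxia KO, against 0.522, 0.234, 0.608 and 4.00 CPM in normoxia flox. The highest of the flox values was that of normoxia flox 4, and the log2 fold change of 5.03 ± 0.53 (adjusted p = 4.52e-06) was 6.60 without it. Fndc1, a protein with fibronectin type III domains, showed the same order, with 47.2 to 109 CPM in hypoxia KO against 0.955 to 1.20 CPM in 3 normoxia flox libraries and 5.67 CPM in normoxia flox 4. Its log2 fold change was 4.93 ± 0.50 (adjusted p = 3.56e-06), and 6.0 without that library. Gpr35, a G protein-coupled receptor, rose by 4.86 ± 0.50 (adjusted p = 3.56e-06), and by 5.84 without normoxia flox 4, with oxygen steps of 0.12 ± 0.35 in KO and -0.29 ± 0.60 in flox.

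Other genes of the 10 were highest in hypoxia KO 4. Tnfrsf9, the costimulatory receptor 4-1BB, had 33.5 CPM in that library and 3.23 to 5.82 CPM in the other 4, against 0 to 0.285 CPM in normoxia flox. It rose by 6.17 ± 0.96 on the log2 scale (adjusted p = 0.000148), by 4.91 without hypoxia KO 4 (adjusted p = 8.87e-06) and by 6.89 without normoxia flox 4. Tnfsf8, the CD30 ligand, had 127 CPM in hypoxia KO 4 and 18 to 48.9 CPM in the others, against 0.26 to 2.87 CPM in normoxia flox (log2 fold change 4.76 ± 0.70, adjusted p = 0.000121, and 4.00 without that library). S100a8, a neutrophil calcium-binding protein, had 29.2 CPM in hypoxia KO 4 and 0.431 to 1.02 CPM elsewhere in hypoxia KO, against 0.104 to 0.328 CPM in normoxia flox. Its log2 fold change of 5.03 ± 1.36 (adjusted p = 0.0117) was 1.99 without the library (adjusted p = 0.015), and it did not pass in a fit of the compared groups alone (adjusted p = 0.0682), with immediate early RNA as a covariate (adjusted p = 0.0802) or without the 3 mixed-sex libraries (adjusted p = 0.117).

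Among the genes with the lowest fold changes, normoxia flox 4 stood far above its group for most. The list was Gap43, Gkn3, Cacna2d2, Fat3, Lao1, Brinp2, Nrcam, Gad1, Shank1 and Ntrk3, and in 7 of these 10 the level in normoxia flox 4 was 17.8 to 38.5 times that of the highest other normoxia flox library. Gad1, which makes the neurotransmitter GABA, had 0.969 to 2.91 CPM in hypoxia KO, against 3.86 to 6.26 CPM in 3 normoxia flox libraries and 177 CPM in normoxia flox 4. Its log2 fold change of -4.42 ± 1.46 (adjusted p = 0.0348) became -1.11 without normoxia flox 4 and did not pass (adjusted p = 0.554). Gap43, a growth cone protein, and Nrcam, a neuronal adhesion molecule, had log2 fold changes of -6.36 ± 1.84 and -4.57 ± 1.30 and likewise did not pass without that library (adjusted p = 0.226 and 0.178). With normoxia KO 4 left out as well, Gad1, Gap43 and Nrcam all passed as lower. Their log2 fold changes were then -1.12, -3.22 and -2.06 (adjusted p = 0.0329, 6.99e-06 and 0.000232). Gkn3, a marker of brain arterial endothelium, had 4.36, 2.05, 3.10, 0.0969 and 1.79 CPM in hypoxia KO, against 82.3, 160, 132 and 58.3 CPM in normoxia flox. Normoxia flox 4 was here the lowest of its group, and the gene fell by 5.57 ± 0.55 on the log2 scale (adjusted p = 3.04e-06), 47.6-fold lower in hypoxia KO. Lao1, an amino acid oxidase, had 0 to 0.501 CPM in hypoxia KO and 3.42 to 8.55 CPM in normoxia flox, and fell by 4.79 ± 0.66 (adjusted p = 4.83e-05), or by 5.64 without hypoxia KO 3.

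Clotting genes rose more often than they fell. Of 19 tested genes of the list, 8 rose and 1, Entpd1, fell, beside 14.2% and 13.9% of all genes. The median log2 fold change was 0.37. F5, coagulation factor V, had 829, 586, 567, 823 and 640 CPM in hypoxia KO, against 95.9, 80.2, 89.2 and 138 CPM in normoxia flox. Even the lowest hypoxia KO library was above every normoxia flox library, and the log2 fold change was 2.77 ± 0.18 (adjusted p = 3.29e-08). Tfpi, which blocks the initiation of clotting by tissue factor, had 111 to 120 CPM in hypoxia KO and 39.5 to 46.5 CPM in normoxia flox (log2 fold change 1.45 ± 0.10, adjusted p = 7.71e-08). Procr, the endothelial protein C receptor, had 56.7 to 105 CPM in hypoxia KO against 22.5 to 26.9 CPM in normoxia flox (1.46 ± 0.18, adjusted p = 2.02e-05). F2r, the thrombin receptor PAR1, had 37.6 to 71.9 CPM in hypoxia KO against 7.99 to 16.8 CPM in normoxia flox (2.09 ± 0.26, adjusted p = 1.89e-05). Thbd, thrombomodulin, which turns thrombin toward protein C activation, had 1084, 1049, 1120, 905 and 1030 CPM in hypoxia KO, against 654, 537, 579 and 523 CPM in normoxia flox. The ranges did not meet, at a log2 fold change of 0.86 ± 0.13 (adjusted p = 0.000117). Normoxia KO stood above both, with 1402 to 1700 CPM of Thbd. The genotype step in normoxia was thus 1.40 ± 0.13, and the oxygen step in KO was -0.54 ± 0.12 (adjusted p = 0.0322).

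Genes of fibrinolysis, the dissolving of clots by plasmin, rose in part. Of 8 tested genes, 4 rose, beside 14.2% of all genes, and the other 4 did not pass. Anxa2 and S100a10, which form a plasminogen-binding complex on the cell surface, rose by 1.75 ± 0.11 (adjusted p = 3.49e-08) and 1.82 ± 0.23 (adjusted p = 2.6e-05), with 599 to 900 CPM in hypoxia KO against 189 to 221 CPM in normoxia flox for Anxa2 and 57 to 111 CPM in hypoxia KO against 18.4 to 27.8 CPM in normoxia flox for S100a10. Plaur, the urokinase receptor, had 69.3, 206, 208, 291 and 186 CPM in hypoxia KO, against 70.2, 16.5, 11.8 and 28.6 CPM in normoxia flox. Hypoxia KO 1 and normoxia flox 1 overlapped, as they did for Klf2, and the log2 fold change was 2.60 ± 0.61 (adjusted p = 0.00485). It was 3.33 without normoxia flox 1, and it did not pass without the 3 mixed-sex libraries (2.13, adjusted p = 0.0558).

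**Figure D3:**
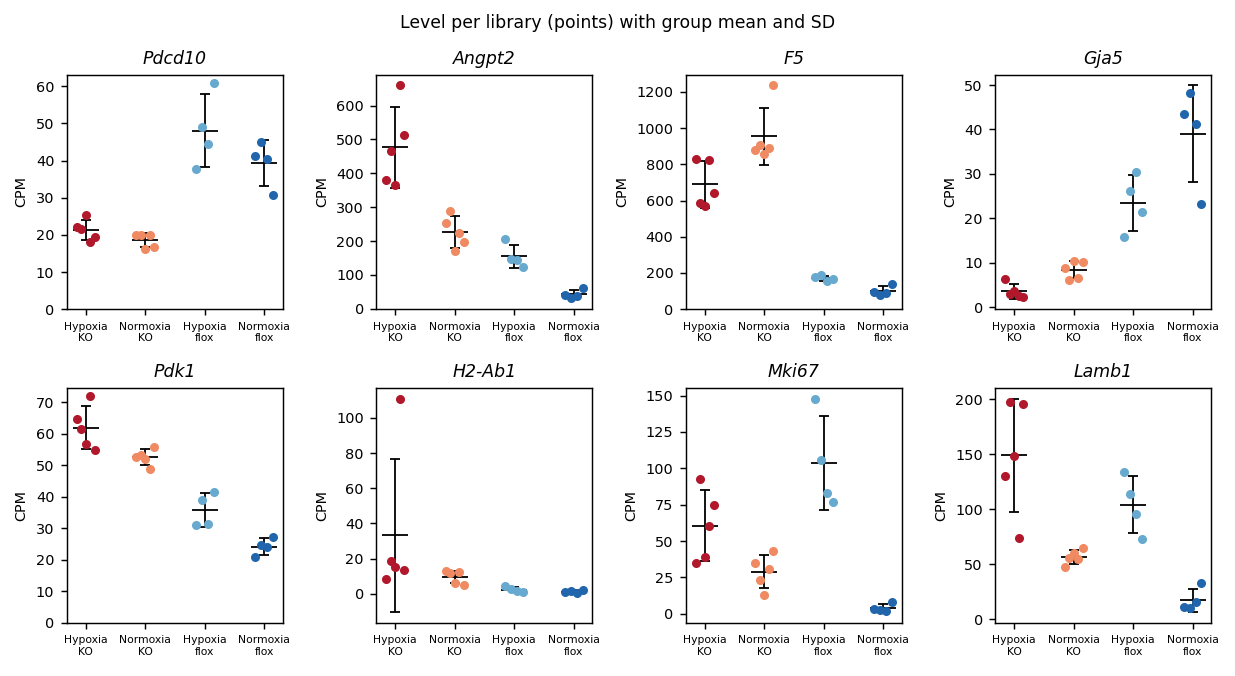
CPM of 8 genes in every library of hypoxia KO (n = 5), normoxia KO (n = 5), hypoxia flox (n = 4) and normoxia flox (n = 4), with the group mean and SD. Group means of Angpt2, Pdk1 and Lamb1 are highest in hypoxia KO, Gja5 is lowest there, and F5, with a mean of 689 CPM, stays below normoxia KO.

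Among genes of vessel destabilisation and sprouting, most tip cell genes rose, while most of the angiopoietin and VEGF list did not pass. Angpt2, the angiopoietin that loosens vessels, had 380, 465, 366, 660 and 513 CPM in hypoxia KO, against 39.8, 32.5, 37.5 and 60.5 CPM in normoxia flox. No library overlapped, and the log2 fold change was 3.48 ± 0.24 (adjusted p = 6.08e-08), 11.2-fold. Its steps ran in the same direction: 2.41 ± 0.23 for genotype in normoxia, 1.86 ± 0.23 for oxygen in flox and 1.07 ± 0.20 for oxygen in KO (adjusted p = 0.0157). Apln, the peptide of sprouting tip cells, had 1101, 1825, 1318, 2263 and 1906 CPM in hypoxia KO, against 32.2, 18.5, 22.9 and 146 CPM in normoxia flox. Normoxia flox 4 stood above the rest of its group, and the log2 fold change of 4.94 ± 0.57 (adjusted p = 1.28e-05) was 6.08 without it. Pgf, a ligand of the VEGF receptor FLT1, had 35.7 to 121 CPM in hypoxia KO and 3.34 to 13.3 CPM in normoxia flox (3.23 ± 0.51, adjusted p = 0.000234). Flt4, the receptor of VEGFC, rose by 0.62 ± 0.13 (adjusted p = 0.00264). Vegfa itself had 19.8, 38.6, 37.8, 43.8 and 40.9 CPM in hypoxia KO, against 21.4, 14.1, 8.20 and 26.5 CPM in normoxia flox. Hypoxia KO 1 fell inside the flox range, and the gene did not pass (1.04 ± 0.43, adjusted p = 0.0766), although it did without that library (1.20, adjusted p = 0.0472). Of 16 genes of the angiopoietin, VEGF and Tie list, 4 rose and 2 fell, beside 14.2% and 13.9% of all genes. The list median was -0.02, and 1 gene fell without normoxia flox 1 or hypoxia KO 4. Of 22 tip cell genes 14 rose and 2 fell, with a median of 1.57. Nid1, Nid2, Col4a1, Col4a2 and Lamb1 are members of this list and also of the basement membrane list below. For genotype in normoxia, 11 tip cell genes were higher and 3 lower, beside 9.54% and 7.03% of all genes. For oxygen in flox 9 were higher, beside 2.34%, and for oxygen in KO 8, beside 0.713%.

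Basement membrane genes, whose products form the sheet around capillaries, moved in both directions. Of 17 tested genes 10 rose and 4 fell, all of them without overlap between the groups, where 20.7% of all genes had none. The 4 that fell were Lama3, Col18a1, Col4a3 and Col4a5. Col4a1 had 3851, 4763, 4043, 4657 and 4467 CPM in hypoxia KO, against 1691, 1730, 1833 and 1561 CPM in normoxia flox. All hypoxia KO libraries stood far above all flox libraries. Col4a1 rose by 1.35 ± 0.10 (adjusted p = 7.42e-08) and its partner chain Col4a2 by 1.44 ± 0.10 (adjusted p = 4.32e-08). Nid1 and Nid2, the nidogens that bridge collagen IV and laminin, rose by 1.90 ± 0.11 (adjusted p = 2.01e-08) and 1.92 ± 0.13 (adjusted p = 5.64e-08). Lamc1, the common laminin gamma chain, rose by 1.38 ± 0.09 (adjusted p = 2.31e-08). Lamb1, a laminin beta chain of growing vessels, had 130, 198, 149, 73.8 and 196 CPM in hypoxia KO, against 11.3, 9.98, 15.5 and 32.7 CPM in normoxia flox. Hypoxia KO 4 was the lowest of its group and normoxia flox 4 the highest of its own, with a log2 fold change of 3.10 ± 0.36 (adjusted p = 1.22e-05). Each of these 6 genes rose in both steps, normoxia KO over normoxia flox and hypoxia KO over normoxia KO. For Col4a1 the steps were 0.62 ± 0.09 and 0.74 ± 0.09 (adjusted p = 0.000222 and 0.00121), and for Lamb1 1.70 ± 0.34 and 1.39 ± 0.31 (adjusted p = 0.0023 and 0.0337). Fn1, fibronectin, averaged 12073 ± 2173 CPM in hypoxia KO and 4769 ± 641 CPM in normoxia flox (1.34 ± 0.13, adjusted p = 2.12e-06), with an oxygen step in KO of 0.04 ± 0.12.

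Arterial genes fell. Of 22 arterial genes, 17 fell and 1, Cdh13, rose. The median log2 fold change was -1.59, and 14 of the 22 lay below normoxia flox in every library, beside 9.44% of all genes. Gja5, the gap junction protein connexin 40 of arterial endothelium, had 6.25, 2.96, 3.64, 2.57 and 2.19 CPM in hypoxia KO, against 43.5, 48.2, 41.3 and 23.3 CPM in normoxia flox. It was 11.1-fold lower in hypoxia KO (log2 fold change -3.47 ± 0.30, adjusted p = 6.62e-07). Bmx, an arterial tyrosine kinase, had 11.2 to 25.4 CPM in hypoxia KO and 80.5 to 132 CPM in normoxia flox (-2.73 ± 0.20, adjusted p = 1.26e-07). Sema3g, a secreted semaphorin of arteries, had 125 to 264 CPM in hypoxia KO against 744 to 1039 CPM in normoxia flox (-2.37 ± 0.21, adjusted p = 8.96e-07). Alpl, tissue-nonspecific alkaline phosphatase, had 28.7 to 92.5 CPM in hypoxia KO against 288 to 444 CPM in normoxia flox (-2.64 ± 0.28, adjusted p = 4.96e-06). All 4 genes fell in each step through normoxia KO, for Gja5 by 2.21 ± 0.28 in the genotype step (adjusted p = 4.45e-05) and by 1.26 ± 0.28 in the oxygen step in KO (adjusted p = 0.0355). In the oxygen step in KO, 7 of the 22 arterial genes fell, beside 0.77% of all genes. Hey1, a Notch-driven repressor, fell by 1.96 ± 0.22 in total (adjusted p = 6.3e-06), with an oxygen step in KO of -0.04 ± 0.20 that did not pass. Of 17 Notch pathway genes, 1 rose and 4 fell, beside 14.2% and 13.9% of all genes. The 4 that fell were the targets Hey1 and Hey2 and the ligands Jag1 and Jag2.

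BMP pathway genes moved in both directions, 4 higher and 7 lower of 21, beside 14.2% and 13.9% of all genes. Smad6 and Smad9, an inhibitor and a transducer of BMP signals, fell by 1.51 ± 0.14 (adjusted p = 1.12e-06) and 2.66 ± 0.31 (adjusted p = 1e-05), while the transducer Smad1 rose by 1.26 ± 0.14 (adjusted p = 6.3e-06). Smad6 had 22.7 to 30.6 CPM in hypoxia KO and 56.9 to 85.3 CPM in normoxia flox, and Smad1 had 90.5 to 136 CPM in hypoxia KO against 38.3 to 58.5 CPM in normoxia flox.

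Markers of the mural cells around vessels moved in opposite directions. Their counts stand beside 14.2% higher and 13.9% lower among all genes. Smooth muscle markers summed to 302 to 479 CPM in hypoxia KO and 726 to 1289 CPM in normoxia flox, and 8 of 11 fell and 1 rose. Acta2, smooth muscle actin, had 75.8, 47.4, 43.5, 48.7 and 39.4 CPM in hypoxia KO, against 280, 272, 211 and 152 CPM in normoxia flox. The ranges were separate, at a log2 fold change of -2.17 ± 0.23 (adjusted p = 3.83e-06). Pericyte markers summed to 1338 to 2328 CPM in hypoxia KO and 419 to 1395 CPM in normoxia flox, and 8 of 13 rose. Kcnj8, a potassium channel of pericytes, had 16.4, 41.8, 29.0, 28.1 and 43.3 CPM in hypoxia KO, against 1.88, 2.58, 0.955 and 2.36 CPM in normoxia flox. It rose by 4.02 ± 0.47 (adjusted p = 1.33e-05). Without normoxia flox 4, 5 of the 13 pericyte markers rose. The arterial list and the smooth muscle markers were lower in the same libraries, and the part of smooth muscle or artery content in the arterial values was not tested.

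Hypoxia genes rose in part. Of 10 HIF subunits and oxygen sensors, 3 rose and 1 fell, beside 14.2% and 13.9% of all genes. Hif1a had 308, 302, 290, 340 and 281 CPM in hypoxia KO, against 130, 117, 114 and 114 CPM in normoxia flox, and rose by 1.36 ± 0.12 (adjusted p = 9.11e-07). The other alpha subunit, Epas1 (HIF2 alpha), had 2187 to 2721 CPM in hypoxia KO and 3303 to 5310 CPM in normoxia flox, and fell by 0.88 ± 0.13 (adjusted p = 9.32e-05). For neither gene did the groups overlap. Egln3, a prolyl hydroxylase that HIF itself induces, had 32.2, 35.7, 30.1, 40.5 and 34.8 CPM in hypoxia KO, against 1.20, 0.609, 0.304 and 4.61 CPM in normoxia flox. Normoxia flox 4 was the highest flox library, and the log2 fold change of 4.33 ± 0.49 (adjusted p = 1.01e-05) was 5.63 without it. In Egln3 the oxygen steps were 0.16 ± 0.37 in KO and -0.03 ± 0.52 in flox, and normoxia KO had 27.0 to 34.7 CPM. Egln1, the main oxygen sensor, rose by 0.31 ± 0.07 (adjusted p = 0.00255).

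Of 35 HIF target genes, 16 rose and 1, Ndrg1, fell, with a median log2 fold change of 0.43, or 0.70 without normoxia flox 4. This count and those of glycolysis and mitochondrial genes below stand beside 14.2% higher and 13.9% lower among all genes. In the steps, 13 were higher and 1 lower for genotype in normoxia, beside 9.54% and 7.03% of all genes, and 2 were higher for oxygen in flox, beside 2.34%. The difference between these counts was not tested. Pdk1, which keeps pyruvate out of the mitochondria, had 64.6, 61.4, 56.6, 72.0 and 54.8 CPM in hypoxia KO, against 20.7, 24.6, 23.9 and 27.3 CPM in normoxia flox. It rose by 1.36 ± 0.11 (adjusted p = 2.47e-07), 1.12 ± 0.11 in the genotype step in normoxia and 0.56 ± 0.11 in the oxygen step in flox (adjusted p = 0.00759). Ldha, the enzyme that makes lactate, had 388 to 484 CPM in hypoxia KO and 208 to 263 CPM in normoxia flox (0.94 ± 0.09, adjusted p = 1.46e-06). Slc16a3, the lactate exporter MCT4, had 33.9, 47.1, 46.8, 86.1 and 41.7 CPM in hypoxia KO, against 3.13, 2.39, 2.69 and 7.50 CPM in normoxia flox, with the highest value of each group in its replicate 4. Slc16a3 rose by 3.69 ± 0.36 (adjusted p = 1.99e-06). Mxi1, a MYC antagonist, rose by 1.07 ± 0.10 (adjusted p = 1.1e-06), and Slc2a1, the glucose transporter GLUT1 of the barrier, did not pass (0.24 ± 0.14, adjusted p = 0.193). In the oxygen step in KO, no HIF target passed in the edgeR test, while 5 were higher and 1 lower at an unadjusted p under 0.05, and DESeq2 called 1, lower. Glycolysis genes followed, with 10 of 17 higher and 1, Eno2, lower. Hk1, Hk2, Aldoa, Pgk1, Eno1 and Ldha are members of both this list and the HIF target list. Pkm, pyruvate kinase, had 737 to 1018 CPM in hypoxia KO and 349 to 538 CPM in normoxia flox (1.04 ± 0.14, adjusted p = 3.32e-05). Eno2 is an enolase rich in neurons, and without normoxia flox 4 it was not called, while 12 of 17 were higher. Of 13 mitochondrially encoded respiratory chain genes 4 fell, among them mt-Nd2 at 815 to 1099 CPM in hypoxia KO, against 1154 to 1265 CPM in 3 normoxia flox libraries and 2813 CPM in normoxia flox 4. Its log2 fold change of -0.68 ± 0.22 (adjusted p = 0.0329) did not pass without that library (-0.27, adjusted p = 0.145), and then 1 of the 13 fell.

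Promoters of the 3 HIF targets with the smallest adjusted p, among those that rose and hold a HIF core, are shown because these genes moved together. They are the 250 bases before the RefSeq start site (assembly GRCm38.p6, an earlier build than the one of the counts), written 5′ to 3′ on the gene's strand. Pdk1 lies at chr2:71872974-71873223 on the plus strand, Ldha at chr7:46845554-46845803 on the plus strand and Slc16a3 at chr11:120948817-120949066 on the plus strand. Capitals mark the HIF core ACGTG or GCGTG, or its reverse complement CACGT or CACGC. Ldha holds 2 copies of the palindrome CACGTG, which matches on both strands and is also an E-box.
Pdk1: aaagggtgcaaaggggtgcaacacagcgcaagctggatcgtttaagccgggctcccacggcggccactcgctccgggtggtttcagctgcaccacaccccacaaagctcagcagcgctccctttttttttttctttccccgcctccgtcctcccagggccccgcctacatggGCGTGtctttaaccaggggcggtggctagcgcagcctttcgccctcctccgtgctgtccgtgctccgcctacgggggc
Ldha: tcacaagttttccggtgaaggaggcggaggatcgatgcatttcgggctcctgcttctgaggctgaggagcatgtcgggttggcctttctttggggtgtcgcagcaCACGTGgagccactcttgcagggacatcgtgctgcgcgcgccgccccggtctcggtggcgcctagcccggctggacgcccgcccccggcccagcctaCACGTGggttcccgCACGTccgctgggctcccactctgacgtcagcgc
Slc16a3: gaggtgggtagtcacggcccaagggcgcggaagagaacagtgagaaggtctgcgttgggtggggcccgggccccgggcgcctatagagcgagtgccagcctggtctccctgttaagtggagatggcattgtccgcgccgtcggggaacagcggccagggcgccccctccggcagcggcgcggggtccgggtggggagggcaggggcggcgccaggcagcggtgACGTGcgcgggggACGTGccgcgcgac
A core was found in 23 of 28 HIF target promoters that matched an entry, and in 11 of the 14 that belonged to members that rose. The same letters were in 38.6% of all 27025 promoters, in 54.4% of those of tested genes and in 51.9% of those of genes that rose. The matches describe these sequences, not binding.

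Nearly all mitosis genes and most DNA replication genes rose, where 14.2% of all genes did. Of 24 mitosis genes, 22 rose, with a median log2 fold change of 2.84, and of 22 DNA replication genes 14 rose, with a median of 0.71. Mki67, the proliferation marker, had 35.2, 92.9, 38.8, 60.5 and 74.9 CPM in hypoxia KO, against 3.60, 2.53, 2.21 and 8.36 CPM in normoxia flox. Every hypoxia KO library stood above every flox library, and the log2 fold change was 3.85 ± 0.47 (adjusted p = 2.34e-05). Cdk1, the kinase that starts mitosis, had 7.65, 15.6, 6.83, 10.8 and 15 CPM in hypoxia KO, against 0.992, 0.937, 0.391 and 1.26 CPM in normoxia flox (3.63 ± 0.33, adjusted p = 8.51e-07). Ccnb2, a mitotic cyclin, had 5.06 to 10.7 CPM in hypoxia KO against 0.651 to 0.992 CPM in normoxia flox (3.24 ± 0.30, adjusted p = 1.03e-06). Aurkb, the kinase of the chromosomal passenger complex, had 1.73 to 6.57 CPM in hypoxia KO against 0 to 0.245 CPM in normoxia flox (5.14 ± 0.61, adjusted p = 7.86e-06, and 5.91 without normoxia flox 4). Uhrf1, which carries DNA methylation through replication, had 18 to 28.1 CPM in hypoxia KO against 4.54 to 6.16 CPM in normoxia flox (2.18 ± 0.13, adjusted p = 2.31e-08).

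Promoters of a pair of these mitosis genes are shown, over the same 250 bases and from the same source, with the cell cycle homology element TTTGAA, or its reverse complement TTCAAA, in capitals; this motif was chosen after the values were seen. Cdk1 lies at chr10:69352913-69353162 and Ccnb2 at chr9:70421555-70421804, both on the minus strand.
Cdk1: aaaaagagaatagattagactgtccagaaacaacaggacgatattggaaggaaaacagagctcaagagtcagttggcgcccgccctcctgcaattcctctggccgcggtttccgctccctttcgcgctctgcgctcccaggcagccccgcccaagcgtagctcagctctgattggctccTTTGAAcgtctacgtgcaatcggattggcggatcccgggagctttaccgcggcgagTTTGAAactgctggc
Ccnb2: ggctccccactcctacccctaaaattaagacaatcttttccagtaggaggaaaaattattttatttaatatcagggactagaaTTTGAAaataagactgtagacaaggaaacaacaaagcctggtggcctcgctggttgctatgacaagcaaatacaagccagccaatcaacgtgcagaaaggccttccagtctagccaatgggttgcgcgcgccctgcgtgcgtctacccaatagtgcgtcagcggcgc
The element was in 7 of 20 mitosis promoters that matched an entry, in 7 of the 18 whose genes rose, in 16.3% of all promoters, in 10.9% of those of tested genes and in 11.6% of those of genes that rose.

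In cell division, the combined change was below the sum of the single changes. The non-additive term tests whether the oxygen step in KO differed from the oxygen step in flox, and 77 of 17531 genes passed it (0.439%), every one of them on the lower side. No gene was called higher by edgeR, although 337 were higher at an unadjusted p under 0.05, and DESeq2 called 20 higher and 125 lower. Of the 24 mitosis genes 18 passed, and of the 22 DNA replication genes Uhrf1 passed. Mki67 had 76.8 to 148 CPM in hypoxia flox and 13.1 to 42.9 CPM in normoxia KO, so each change alone had raised it above the 2.21 to 8.36 CPM of normoxia flox. Hypoxia alone gave 4.62 ± 0.50, Pdcd10 loss alone 2.79 ± 0.45 and both together 3.85 ± 0.47, and the non-additive term was -3.56 ± 0.60 (adjusted p = 0.013). For Cdk1 the term was -2.81 ± 0.41 (adjusted p = 0.00545), for Ccnb2 -2.52 ± 0.38 (adjusted p = 0.00578) and for Bub1, a spindle checkpoint kinase, -3.22 ± 0.48 (adjusted p = 0.00545). The 5 lowest terms belonged to Aurkb (-4.51 ± 0.75, adjusted p = 0.00953), Pimreg (-4.40 ± 0.48, adjusted p = 0.000628), Depdc1a (-3.62 ± 0.67, adjusted p = 0.0232), Birc5 (-3.59 ± 0.74, adjusted p = 0.043) and Ncapg (-3.58 ± 0.50, adjusted p = 0.00474), all genes of mitosis. As list medians, the mitosis genes stood at 2.84 for both changes together, 1.94 for Pdcd10 loss alone and 3.44 for hypoxia alone, and the median of the sums was 5.38. F5, outside this group, had a term of -1.23 ± 0.23 (adjusted p = 0.0245), with 567 to 829 CPM in hypoxia KO, 859 to 1237 CPM in normoxia KO, 154 to 188 CPM in hypoxia flox and 80.2 to 138 CPM in normoxia flox. The non-additive count was 28, 30 and 38 genes without normoxia flox 1, 2 and 3, and the terms of F5, Depdc1a and Birc5 did not pass when any of these 3 was left out, nor that of Mki67 without normoxia flox 1 or 2 (adjusted p = 0.0552 and 0.0512). Without the 3 mixed-sex libraries, the terms of Aurkb (adjusted p = 0.0747) and Depdc1a (adjusted p = 0.0703) did not pass. With the sex signal as a covariate, those of F5 (adjusted p = 0.069) and Birc5 (adjusted p = 0.0807) did not pass. Without normoxia flox 4, the Birc5 term was -5.88.

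**Figure D4:**
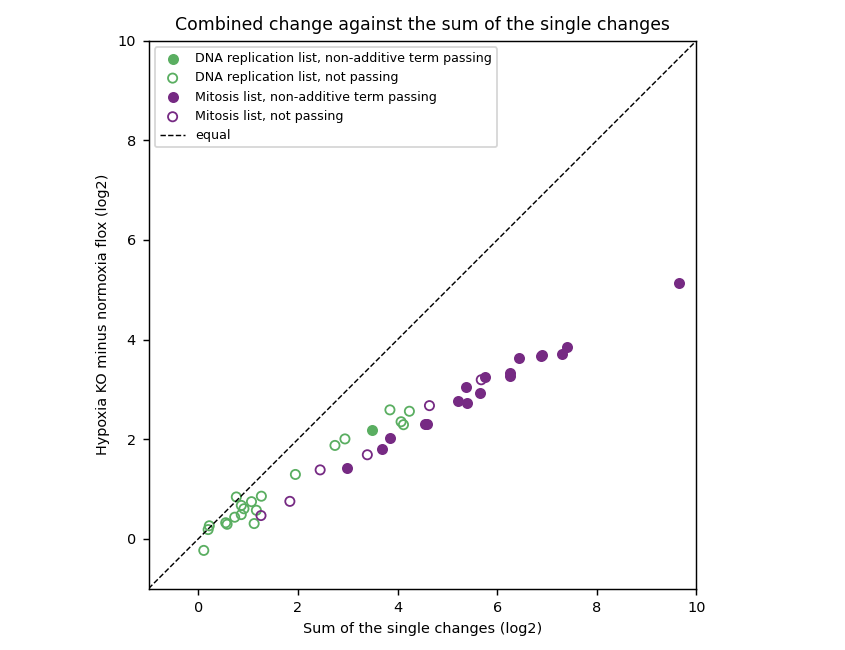
Combined log2 fold change (hypoxia KO minus normoxia flox, vertical axis) against the sum of the single changes (normoxia KO and hypoxia flox, each minus normoxia flox, horizontal axis), 1 point a gene of the mitosis (24) and DNA replication (22) lists; filled points passed the non-additive test. The mitosis genes lie below the line of equality, and 18 of them passed.

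Among the other lists, several medians were close to the sum. The tip cell list stood at 1.57 against a sum of 1.90, basement membrane at 1.09 against 1.19 and the arterial list at -1.59 against -1.56. MHC class II was above its sum, at 3.75 against 3.03, and chemokines at 2.15 against 1.41, with no passing non-additive term in either list by edgeR or DESeq2 and none at an unadjusted p under 0.05.

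**Figure D5:**
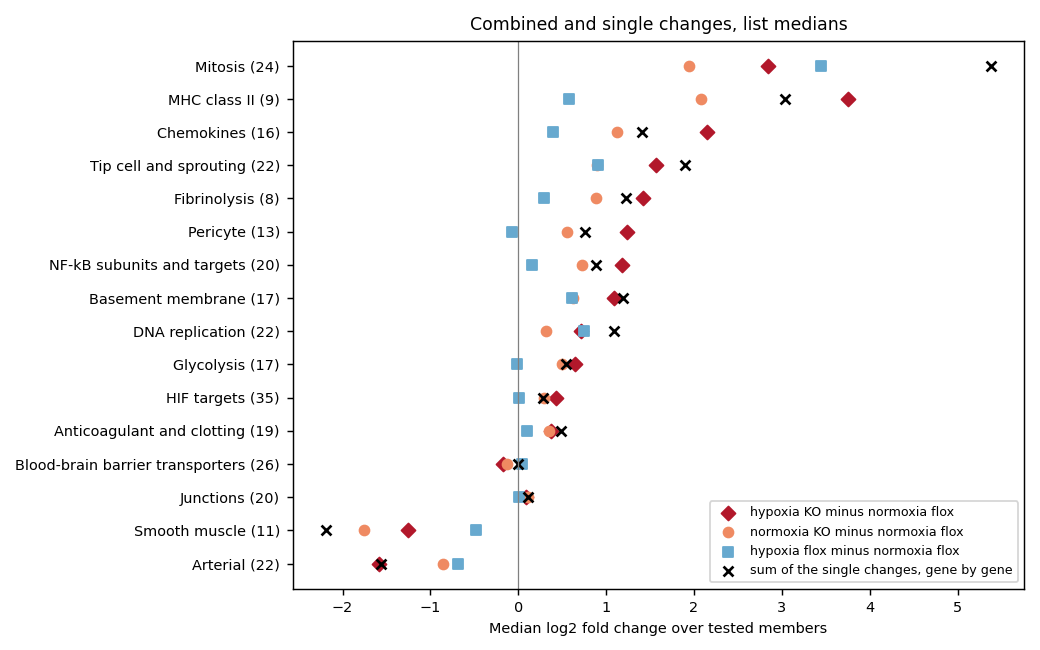
Median log2 fold change over the tested members of 16 lists (their number in brackets) for hypoxia KO, normoxia KO and hypoxia flox, each minus normoxia flox, and for the sum of the last 2 gene by gene. Mitosis is at 2.84 against a sum of 5.38, and the arterial list is at -1.59 against -1.56.

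Antigen presentation genes of MHC class II rose steeply, with 1 library far above the others. Of 9 tested genes 8 rose, with a median log2 fold change of 3.75. This count and that of the lymphocyte markers below stand beside 14.2% of all genes. H2-Ab1, a class II beta chain, had 8.35, 18.6, 15.2, 111 and 13.4 CPM in hypoxia KO, against 0.887, 1.78, 0.651 and 1.88 CPM in normoxia flox. Hypoxia KO 4 was the highest, and the other 4 were still above all flox libraries. H2-Ab1 rose by 4.67 ± 0.83 (adjusted p = 0.00065), and by 3.40 without hypoxia KO 4 (adjusted p = 0.000124). H2-Aa, the matching alpha chain, had 103 CPM in that library and 7.70 to 22.3 CPM in the other 4, against 0.738 to 2.44 CPM in normoxia flox (4.43 ± 0.77, adjusted p = 0.000538, and 3.48 without it). Cd74, the invariant chain, had 13.7, 43.3, 37.2, 299 and 36.2 CPM in hypoxia KO, against 2.97, 4.22, 1.17 and 4.65 CPM in normoxia flox, and rose by 4.72 ± 0.90 (adjusted p = 0.00112), 3.32 without hypoxia KO 4. Ciita, the master activator of class II genes, had 18.5 CPM in hypoxia KO 4 and 1.72 to 3.29 CPM elsewhere in the group, against 0.651 to 0.887 CPM in normoxia flox (3.04 ± 0.66, adjusted p = 0.00288, and 1.89 without it). Without hypoxia KO 4, 7 of the 9 genes rose and the median was 2.37. Without the mixed-sex libraries, 5 rose. Lymphocyte markers moved with these genes: they summed to 19.9 to 55.0 CPM in hypoxia KO and 5.08 to 15.3 CPM in normoxia flox. Of the 13 tested, 12 rose, and 6 rose without the mixed-sex libraries. None of the 16 was at 0 in every library of either group. Macrophage markers summed to 44.8 to 129 CPM in hypoxia KO and 26.7 to 34.2 CPM in 3 normoxia flox libraries, with 173 CPM in normoxia flox 4. The part of immune cells in the class II values was not tested. Near-identical H2 genes can also share reads, and no source used here states whether counting used strand.

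Chemokine and NF-kB genes rose alongside. Their counts stand beside 14.2% higher among all genes. Of 16 chemokine genes 9 rose, with a median of 2.15, and 6 rose without the mixed-sex libraries. Ccl5, which draws T cells, had 1.02, 3.83, 2.92, 13.0 and 2.91 CPM in hypoxia KO, against 0.104, 0.0937, 0.0868 and 0.122 CPM in normoxia flox. The groups were separate, at 5.47 ± 0.77 (adjusted p = 4.28e-05), and 4.64 without hypoxia KO 4. Of 20 NF-kB subunits and targets 10 rose, and 7 rose without the mixed-sex libraries. Nfkbie, an inhibitor that NF-kB induces, had 13.2 to 24.2 CPM in hypoxia KO and 4.24 to 5.27 CPM in normoxia flox (1.78 ± 0.18, adjusted p = 3.24e-06), and Relb, a subunit of the alternative pathway, had 45.9 to 57.7 CPM in hypoxia KO against 14.8 to 24.7 CPM in normoxia flox (1.28 ± 0.16, adjusted p = 1.92e-05). Tlr4, the endotoxin receptor through which gut bacteria are known to drive cavernous malformations in mice, had 33.4, 35.9, 30.5, 39.7 and 36.3 CPM in hypoxia KO, against 10.6, 9.84, 9.38 and 9.70 CPM in normoxia flox. Each group was tight, and Tlr4 rose by 1.83 ± 0.14 (adjusted p = 1.73e-07). Cd55, which shields cells from complement, had 119 to 203 CPM in hypoxia KO, against 6.84 to 7.86 CPM in 3 normoxia flox libraries and 21.2 CPM in normoxia flox 4 (3.76 ± 0.33, adjusted p = 7.34e-07). H2-D1, a class I heavy chain, rose by 0.95 ± 0.24 (adjusted p = 0.00871) and did not pass without the mixed-sex libraries (adjusted p = 0.0729).

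The leukocyte adhesion receptors of activated endothelium did not pass. Of 22 genes of the adhesion and inflammation list, 4 rose and 4 fell, beside 14.2% and 13.9% of all genes. Without normoxia flox 4, 4 rose and 2 fell. Vcam1 had 271, 428, 472, 482 and 389 CPM in hypoxia KO, against 456, 411, 217 and 201 CPM in normoxia flox, and did not pass (0.35 ± 0.34, adjusted p = 0.469, and -0.11 without the mixed-sex libraries). Icam1 had 132, 846, 941, 1037 and 681 CPM in hypoxia KO, against 721, 319, 75.5 and 131 CPM in normoxia flox (1.22 ± 0.91, adjusted p = 0.333). Both genes were lowest in hypoxia KO 1 and highest in normoxia flox 1 within their groups, and Icam1 stood at 2.04 without normoxia flox 1 (adjusted p = 0.142). With immediate early RNA as a covariate, Icam1 stood at 0.08 (adjusted p = 0.734), and without the mixed-sex libraries at 0.46 (adjusted p = 0.801). Ptgs2, the inducible cyclooxygenase, did not pass either (-0.74 ± 0.89, adjusted p = 0.557), but fell by 2.0 with immediate early RNA as a covariate (adjusted p = 0.00218). Cx3cl1, fractalkine, had 298, 385, 344, 473 and 335 CPM in hypoxia KO, against 246, 211, 202 and 562 CPM in normoxia flox. Normoxia flox 4, a neuron-marker library, was above every hypoxia KO library. Cx3cl1 did not pass with it (0.26 ± 0.27, adjusted p = 0.488) but did without it (0.72, adjusted p = 0.0112).

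Barrier genes moved in both directions. The list counts here stand beside 14.2% higher and 13.9% lower among all genes. Of 26 blood-brain barrier transporters 6 rose and 5 fell, and 5 rose and 11 fell without normoxia flox 4. Slc16a1, the lactate and ketone transporter MCT1, had 1941, 2478, 2181, 1519 and 1809 CPM in hypoxia KO, against 866, 635, 754 and 694 CPM in normoxia flox, and rose by 1.43 ± 0.17 (adjusted p = 1.64e-05). Of 20 junction genes 5 rose and 2 fell, and 3 rose and 3 fell without normoxia flox 4. Cldn5, the main claudin of the barrier, averaged 1718 ± 94.4 CPM in hypoxia KO (SD, n = 5) and 1652 ± 280 CPM in normoxia flox (SD, n = 4), and did not pass (0.06 ± 0.12, adjusted p = 0.759, and -0.05 without normoxia flox 4). Jam2, a junctional adhesion molecule, had 240 to 306 CPM in hypoxia KO and 362 to 578 CPM in normoxia flox, and fell by 0.83 ± 0.13 (adjusted p = 0.000176). Pecam1, the pan-endothelial marker, rose by 0.48 ± 0.09 (adjusted p = 0.000826). Of 19 endothelial transcription factors 2 rose and 5 fell. Sox18 and Sox17, factors of vascular and arterial identity, fell by 1.14 ± 0.17 (adjusted p = 0.000128) and 0.74 ± 0.16 (adjusted p = 0.00226), and Bcl6b, a repressor induced by VEGF, had 203 to 318 CPM in hypoxia KO against 58.3 to 140 CPM in normoxia flox and rose by 1.59 ± 0.30 (adjusted p = 0.000886).

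Steps through normoxia KO showed which totals were built up and which cancelled. They share the normoxia KO libraries and are given without a test of the pattern. Both steps passed on the higher side in 59 genes and on the lower side in 26. These counts required a passing combined change, no overlap between hypoxia KO and normoxia flox, and a moderate level. Unnamed gene models were left out. Nox4, an oxidase that makes hydrogen peroxide, had 7.32, 12.2, 10.5, 7.22 and 11.3 CPM in hypoxia KO, 2.17 to 4.71 CPM in normoxia KO, and 0.731, 0.281, 0.695 and 1.06 CPM in normoxia flox, with steps of 2.35 ± 0.34 and 1.43 ± 0.26 (adjusted p = 0.000139 and 0.0121). Gpr55, a lipid receptor, had 6.02 to 9.64 CPM in hypoxia KO, 2.42 to 3.44 CPM in normoxia KO and 0.217 to 2.57 CPM in normoxia flox (total 3.13 ± 0.45, adjusted p = 8.06e-05, and 4.49 without normoxia flox 4). On the lower side, Coro2a, an actin-binding coronin, had 2.53, 1.89, 3.05, 3.88 and 1.63 CPM in hypoxia KO, 6.18 to 8.28 CPM in normoxia KO and 32.1, 33.5, 52.7 and 36.8 CPM in normoxia flox. It fell by 3.89 ± 0.24 in total (adjusted p = 2.5e-08), in steps of -2.48 ± 0.23 and -1.41 ± 0.23. Pcsk5, a proprotein convertase, fell by 3.51 ± 0.39 in total (adjusted p = 6.96e-06), in steps of -1.60 ± 0.35 and -1.91 ± 0.38.

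Opposed steps passed in 46 genes that were higher after Pdcd10 loss and lower again in hypoxia, and in 5 with the reverse order. Here a moderate level was required and unnamed gene models were left out, with no limit on the combined change or overlap. The counts of opposed steps and of steps in the same direction are thus not comparable. Angpt1, the ligand that steadies vessels and counters Angpt2, had 11.8, 3.61, 7.83, 2.57 and 8.21 CPM in hypoxia KO, 30.9, 25.2, 25.1, 31.2 and 43.5 CPM in normoxia KO, and 8.82, 9.70, 9.72 and 9.42 CPM in normoxia flox. Normoxia KO thus stood above both, and the total did not pass (-0.47 ± 0.31, adjusted p = 0.271), with steps of 1.73 ± 0.32 and -2.20 ± 0.30 (adjusted p = 0.00111 and 0.00243). Lhx6, a homeobox factor, behaved likewise, with 4.27 to 23.4 CPM in hypoxia KO, 31.8 to 87.2 CPM in normoxia KO and 12.3 to 23 CPM in normoxia flox (total -0.26 ± 0.37, adjusted p = 0.635, and 0.03 without the mixed-sex libraries). Cdh1, E-cadherin, had 0.436 to 4.42 CPM in hypoxia KO, 8.12 to 19.1 CPM in normoxia KO and 0.365 to 2.16 CPM in normoxia flox. Its total of 1.29 ± 0.59 did not pass (adjusted p = 0.112), and did without normoxia flox 4 (2.03, adjusted p = 0.031) or without hypoxia KO 4 (1.56, adjusted p = 0.0426). Ms4a8a, a membrane protein, kept part of its rise: 0.436 to 2.37 CPM in hypoxia KO, 4.38 to 9.86 CPM in normoxia KO and 0 to 0.285 CPM in normoxia flox (total 3.58 ± 0.70, adjusted p = 0.000539, and 5.10 without normoxia flox 4).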

How the data were processed

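The series holds 18 RNA-seq libraries of mouse brain endothelial cells. The deposited table gives raw read counts per gene for 57010 gene IDs; per the submitters' processing notes, HISAT2, the build GRCm39 and edgeR were used, with versions not given in the sources used here. A deposited RPKM table was not used. Libraries were grouped by their labels. Genes passing filterByExpr (17531) were scaled by TMM and fitted in 1 model of 4 groups with edgeR 4.0.16 (R 4.3.3, limma 3.58.1) by the quasi-likelihood F test, with Benjamini-Hochberg adjustment over all tested genes and a threshold of 0.05. Standard errors were derived from each log2 fold change and its F statistic. DESeq2 1.42.0, other filters, scalings, covariates and left-out libraries were alternatives, and 2 of these were added after the data were seen.

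Counts were simulated with 200 of 17531 genes changed. For the combined change, 55 of 100 genes changed 2-fold and 78 of 100 changed 4-fold were recovered, with 11 false calls. For the non-additive term these were 34 of 100, 63 of 100 and 3. The members and gene lists were chosen with earlier results of these data known. Named genes were a fixed set, the 10 highest and 10 lowest combined changes, up to 4 passing members a list by adjusted p, the 5 highest and lowest non-additive terms and up to 4 genes a step pattern; a selection is printed, some named genes are not reported here, and some other list members, such as Ccm2, Birc5 and mt-Nd2, were chosen after their values were seen. Gene lists were described by counts and medians, with no set test. No 2 libraries were identical.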

Additional observations from a re-analysis of the deposited data

Results flagged for a closer look

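Libraries far from the rest of their group were looked for in 222 sets of 4 or 5 libraries, and 36 were found. Each set was a gene or marker sum in 1 group. The limit used is meant to flag about 1 in 20 sets of independent, normally spread values. Many genes here were chosen by their values and share the same odd libraries, so the 36 cannot be set against that rate. Values are CPM.

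Hypoxia KO 4 was the highest of its group for Tnfrsf9 (33.5), Tnfsf8 (127), Cd74 (299), S100a8 (29.2), Procr (105), Slc16a3 (86.1), H2-Aa (103), H2-Ab1 (111), Ciita (18.5), Ccl5 (13.0) and the neutrophil marker sum (103). Hypoxia KO 1 was the lowest for Klf2 (856), Klf4 (872), Vegfa (19.8), Bcl6b (203) and the immediate early sum (4333), and the highest for Nrcam (4.85), Acta2 (75.8) and the neuron marker sum (86.4).

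Normoxia flox 4 was the highest of its group for Ackr2 (4.00), Apln (146), Fndc1 (5.67), Gpr35 (1.96), Gap43 (46.8), Gad1 (177), Nrcam (180.0), Slc16a3 (7.50), mt-Nd2 (2813), Birc5 (0.815), Cx3cl1 (562), Cd55 (21.2) and Gpr55 (2.57). It was also the highest for the astrocyte (2896), neuron (2603) and macrophage (173) marker sums. Normoxia flox 1 was the highest for Ciita (0.887).

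The oxygen response in KO was below that in flox for 11 named genes, by the edgeR quasi-likelihood test of the difference itself with all libraries. The terms on the log2 scale were -4.51 for Aurkb, -4.40 for Pimreg, -3.62 for Depdc1a, -3.59 for Birc5, -3.58 for Ncapg, -3.56 for Mki67, -3.22 for Bub1, -2.81 for Cdk1, -2.52 for Ccnb2, -1.31 for Uhrf1 and -1.23 for F5. The terms of F5, Birc5, Depdc1a and Mki67 did not pass without single normoxia flox libraries, and that of Pimreg alone passed in every alternative tried.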

How the results depend on the processing

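The combined change gave 3826 to 6512 genes over the planned and added alternatives that kept all replicates or left out several libraries, and 3804 to 5296 when 1 library was left out, all within 1.5 times of 4925. The non-additive count of 77 was 145 with DESeq2, 154 with immediate early RNA as a covariate and without the neuron-marker libraries, and 28 to 98 when 1 library was left out. The oxygen step in KO (260 genes) gave 617 with DESeq2, 107 in a fit of the compared groups alone, 513 with the immediate early covariate, 1054 with that covariate and without the neuron-marker libraries, and 53 to 523 when 1 library was left out. Hypoxia KO and normoxia flox share replicate numbers, but same-numbered libraries did not deviate together (r = -0.576, 0.303, -0.0532 and 0.0572), and not every library correlated best with its own number. With a replicate block the counts were 4162 for the combined change, 3 for the non-additive term and 43 for the oxygen step in KO. Of the 11 non-additive terms named, that of Pimreg passed with the block, and those of Cdk1 and Uhrf1 (both adjusted p = 0.0782), Ncapg (0.0821), Aurkb, Bub1 and Ccnb2 (all 0.0947), F5 (0.116), Depdc1a (0.159), Mki67 (0.16) and Birc5 (0.26) did not. The cause of these shifts was not tested. Among 109 results for single genes, 86 kept their call in every alternative; of 2272 recomputed values, 65 lost and 13 gained a call. No value that passed in either setting changed direction, while Vcam1, Icam1, Cldn5 and Lhx6, which did not pass, changed sign in some alternatives (Icam1 to -0.05 with the immediate early covariate and without the neuron-marker libraries). At this depth, with 4 or 5 libraries a group, 55 of 100 simulated 2-fold changes were recovered for the combined change. The simulation changed 200 genes, where 4925 passed in the data, and held no library with RNA of other cells. Its recovery is thus not the sensitivity of this comparison. A gene that did not pass may still differ. Normoxia flox 4, normoxia KO 4 and hypoxia KO 4, which hold markers of other cells, entered the values unless stated.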

Other observations

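Some lists were not described above, and their counts stand beside 14.2% higher and 13.9% lower among all genes. Of 25 interferon-stimulated genes 4 rose, with a median log2 fold change of 0.24. Of 15 MHC class I genes 2 rose, with a median of 0.66. Without hypoxia KO 4, 1 class I gene rose, with a median of 0.21, and without the mixed-sex libraries 0 rose. Of 14 metalloproteinases and their inhibitors 6 rose and 1 fell, and of 16 fibronectin and integrin genes 7 rose and 1 fell. Of 21 cholesterol synthesis genes 3 fell, and 1 fell without normoxia flox 4 or hypoxia KO 1. Of 20 Wnt genes of the barrier programme 1 rose and 4 fell, and 1 rose and 8 fell without normoxia flox 4, while 2 fell without normoxia flox 1, hypoxia KO 1 or hypoxia KO 4. Of 6 erythroid markers 4 rose, with summed levels of 2609 to 8008 CPM in hypoxia KO and 1362 to 2730 CPM in normoxia flox, and none of them passed with immediate early RNA as a covariate.

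The position of each normoxia flox library relative to hypoxia KO was counted with that library left out of the calls. Among 669 genes called at least 4-fold higher in hypoxia KO when it was left out, normoxia flox 4 was nearer to hypoxia KO than every other flox library in 423 (63.2%). Left out in turn, normoxia flox 1 was nearer in 156 of 568 (27.5%), normoxia flox 2 in 145 of 522 (27.8%) and normoxia flox 3 in 46 of 488 (9.43%). Among genes called at least 4-fold lower, the libraries nearer to hypoxia KO were normoxia flox 4 in 109 of 198 (55.1%), normoxia flox 1 in 206 of 632 (32.6%), normoxia flox 2 in 231 of 619 (37.3%) and normoxia flox 3 in 162 of 592 (27.4%). The median position of the left-out library for these lower genes was 23.4% of the way to hypoxia KO for normoxia flox 4. It was 77.8%, 77.0% and 66.8% for normoxia flox 1, 2 and 3. With any of these 3 left out, normoxia flox 4 was still among the libraries that set the calls. Its part in those positions was not tested. For the higher genes the median position was 23.7% for normoxia flox 4 and 0.579%, -0.165% and -13.6% for normoxia flox 1, 2 and 3. These are counts of genes, not a test.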
